A study of Mus musculus with 24 samples.

Results

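The genes described here are 8 regulators and early effectors of red cell formation, namely Gata1, Gata2, Klf1, Zfpm1, Gfi1b, Epor, Tfrc and Alas2. They were listed by name for their known role, with earlier results of these data known. They are 8 of the 56748 genes of the count table, and 7 of them had enough counts to be tested, the exception being Alas2. Their RNA was counted in 24 sequencing libraries of stem and progenitor cells sorted from mouse bone marrow, in 8 groups with 3 libraries each. The groups were KO-labelled HSC, MPP1, MPP2 and MPP4, and WT-labelled HSC, MPP1, MPP2 and MPP4, where HSC stands for haematopoietic stem cells and MPP for multipotent progenitors. Every animal of both genotypes had been given tamoxifen, so all comparisons between genotypes are within treated animals. The labels do not name the deleted gene, the Cre driver or the age of the animals, nor is it given whether replicate libraries are separate animals, so the spread behind each p-value is that between libraries and may be technical.

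Gata2 and Gata1 are zinc finger factors that bind the same short DNA word. Gata2 is the factor of stem and early progenitor cells, and Gata1 takes over from it as cells commit to the red cell, megakaryocyte, mast cell and eosinophil lineages. Zfpm1 (Fog1) is the protein partner through which Gata1 acts at many of its targets, Gfi1b is a transcriptional repressor needed in both the red cell and the megakaryocyte lineage, and Klf1 switches on globin and other red cell genes. Epor is the receptor for erythropoietin, Tfrc is the transferrin receptor that brings iron into cells, and Alas2 is the red cell form of the enzyme that starts heme synthesis.

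The promoters of Gata1, Gfi1b and Epor are shown because these genes were higher in KO-labelled than in WT HSC and lower in KO-labelled than in WT MPP1. Each sequence runs 5′ to 3′ on the strand of the gene, over 300 bases, most of them upstream of the start annotated by RefSeq in build GRCm38.p6, which is not the mm39 build of the counts. Capitals mark a GATA word (AGATAA or TGATAA) or a Klf1 word (CCACACCC, CCACGCCC, CCCCACCC or CCCCGCCC) on either strand. The Gata1 window lies at chrX:7967861-7968160 on the minus strand, the Gfi1b window at chr2:28621933-28622232 on the minus strand and the Epor window at chr9:21963527-21963826 on the minus strand.
Gata1: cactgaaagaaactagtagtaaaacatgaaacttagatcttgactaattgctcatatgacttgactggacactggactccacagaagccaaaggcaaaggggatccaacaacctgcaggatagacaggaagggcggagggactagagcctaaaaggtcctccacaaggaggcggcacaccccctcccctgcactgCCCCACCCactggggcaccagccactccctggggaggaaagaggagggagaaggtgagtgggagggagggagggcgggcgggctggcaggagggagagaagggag
Gfi1b: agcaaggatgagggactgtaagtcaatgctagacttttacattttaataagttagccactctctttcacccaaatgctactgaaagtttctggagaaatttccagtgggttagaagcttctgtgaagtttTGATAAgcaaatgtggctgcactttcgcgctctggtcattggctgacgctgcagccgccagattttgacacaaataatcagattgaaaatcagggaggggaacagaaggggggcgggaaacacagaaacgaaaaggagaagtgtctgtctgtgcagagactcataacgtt
Epor: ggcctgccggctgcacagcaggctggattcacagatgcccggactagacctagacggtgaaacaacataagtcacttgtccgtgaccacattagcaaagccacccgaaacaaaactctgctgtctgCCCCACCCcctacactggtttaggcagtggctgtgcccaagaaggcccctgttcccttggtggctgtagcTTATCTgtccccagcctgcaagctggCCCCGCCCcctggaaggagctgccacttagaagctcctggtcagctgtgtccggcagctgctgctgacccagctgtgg
The Gata1 window held 1 Klf1 word, at position -55 from the start, and no GATA word. The Gfi1b window held 1 GATA word, at -120, and no Klf1 word. The Epor window held 1 GATA word, at -54 on the opposite strand, and 2 Klf1 words, at -124 and -28. Of all 32851 mouse promoter windows of this length, 18.6% held a GATA word and 29.7% a Klf1 word, so that a match by itself was common.

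Total counts per library ran from 2894916 to 3667509 in the KO-labelled libraries and from 2540511 to 3807003 in the WT libraries. Levels are given in CPM, counts relative to the scaled library total. Ddx6, an RNA helicase of P-bodies and, from background knowledge that the labels do not state, the presumed target of the deletion, had 194 to 308 counts in KO-labelled and 154 to 319 in WT libraries and was higher under the KO label (log2 fold change 0.32 ± 0.09 (SE), adjusted p = 0.00355 in edgeR's quasi-likelihood test of the average over populations). Counts from exons outside the deleted part say nothing about a deletion, so the genotype is written as labelled. The RNA of surface proteins by which these populations are usually sorted went against 2 of the population labels. Flt3, the receptor that marks MPP4 in the usual scheme, averaged 544 CPM in KO-labelled and 1138 CPM in WT libraries labelled MPP2, against 84.6 CPM in KO-labelled and 64.9 CPM in WT libraries labelled MPP4. Slamf1 (CD150), which marks HSC and MPP2, averaged 4.78 CPM in KO and 7.86 CPM in WT MPP2-labelled libraries, against 87.5 CPM in KO and 41.1 CPM in WT MPP4-labelled ones. These populations are called MPP2-labelled and MPP4-labelled for that reason. A share of the counts came from reads spread along the genome, estimated from 1491 olfactory and vomeronasal receptor genes. That share was 5.54% in KO-labelled and 22.5% in WT HSC, 13.8% in KO-labelled and 24.1% in WT MPP1, 9.35% in KO and 11.6% in WT MPP2-labelled cells, and 18.4% in KO and 30.6% in WT MPP4-labelled cells.

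**Figure D1:**
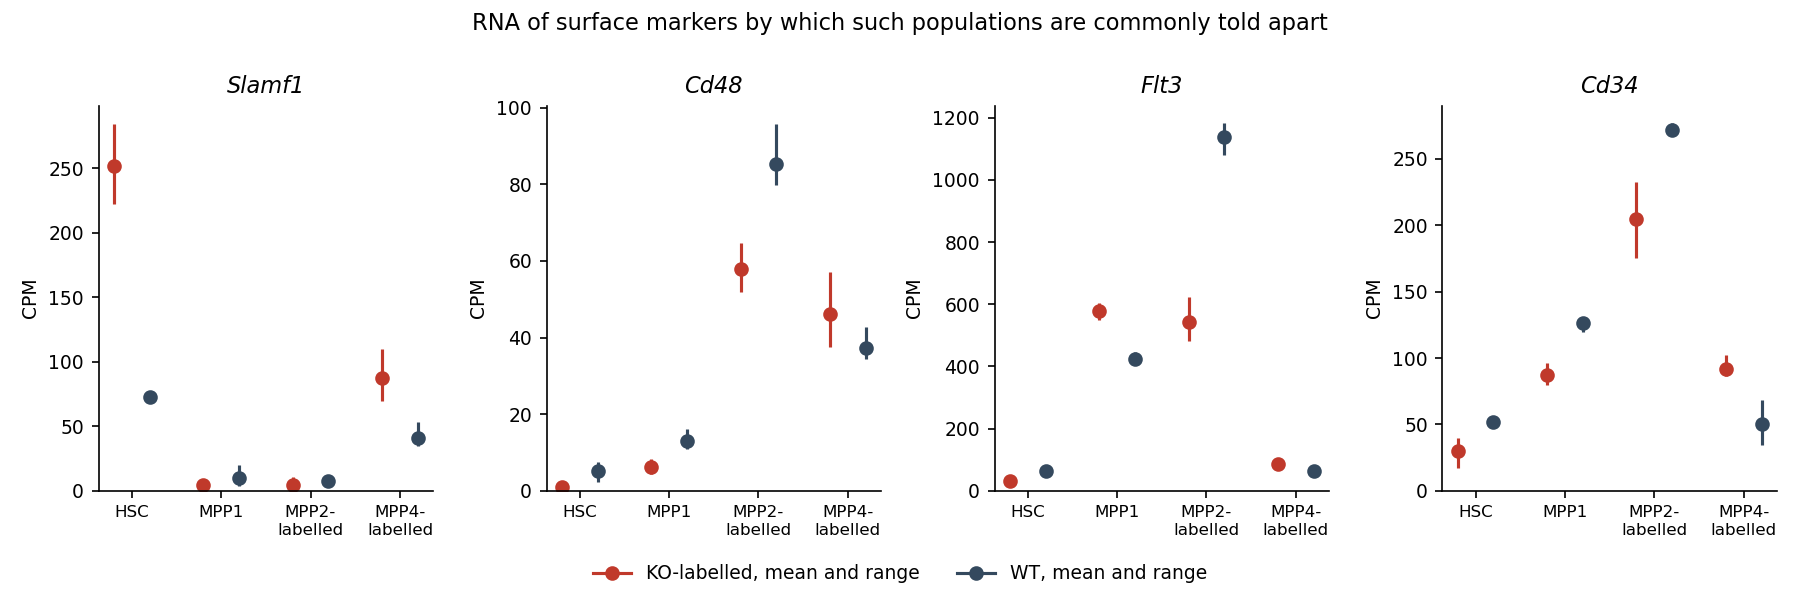
Level in CPM of Slamf1, Cd48, Flt3 and Cd34 in each group, as the mean and range of 3 libraries, KO-labelled left of WT. Flt3 averaged 544 (KO) and 1138 CPM (WT) in the MPP2-labelled groups and 84.6 (KO) and 64.9 CPM (WT) in the MPP4-labelled groups.

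In HSC, 5 of the 7 tested genes were higher in KO-labelled than in WT libraries and none was lower. The genes were Gata1, Gata2, Zfpm1, Gfi1b and Epor, by 1.72-fold for Zfpm1 to 5.03-fold for Gata1. Across all 21964 genes tested 43.1% were called in this comparison, 18.3% as higher, and the 3 libraries of each genotype did not overlap for 53.9% of genes. The median log2 fold change of the 7 genes was 1.33, beside -0.31 over all genes.

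Among the Gata factors, Gata2 had 536, 427 and 503 CPM in KO-labelled HSC, against 212.5, 211 and 201 CPM in WT HSC. Each KO-labelled library lay above each WT library, and WT HSC varied little among themselves. The log2 fold change was 1.23 ± 0.16 (SE, n = 3 each, adjusted p = 5.17e-08 in edgeR's quasi-likelihood test). Gata1 was far less abundant, with 38.7, 41.5 and 26.5 CPM in KO-labelled HSC, against 3.05, 5.84 and 12.3 CPM in WT HSC. The groups did not overlap, although WT replicate 3 stood above the other WT libraries. The log2 fold change of Gata1 was 2.33 ± 0.48 (SE, n = 3 each, adjusted p = 0.00014 by edgeR), and it was 2.99 without WT HSC replicate 3.

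Of the partners, Zfpm1 had 652, 526 and 581 CPM in KO-labelled HSC, against 358, 353 and 312 CPM in WT HSC. Gfi1b had 254, 276 and 225 CPM in KO-labelled HSC, against 83.7, 104 and 113 CPM in WT HSC. For both genes the lowest KO-labelled library lay well above the highest WT library. Zfpm1 was higher by 0.78 ± 0.12 on the log2 scale (SE, n = 3 each, edgeR adjusted p = 1.77e-06) and Gfi1b by 1.33 ± 0.18 (edgeR adjusted p = 8.3e-08). Epor, the erythropoietin receptor, had 15.7, 29.7 and 24.96 CPM in KO-labelled HSC, against 8.87, 2.65 and 3.71 CPM in WT HSC. Its lowest KO-labelled library was above its highest WT library, and the log2 fold change was 2.20 ± 0.52 (SE, n = 3 each, edgeR adjusted p = 0.000804), or 2.87 without WT HSC replicate 1.

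Klf1 and Tfrc were not called in HSC. Klf1 had 12.5, 1.69 and 3.79 CPM in KO-labelled HSC, against 4.43, 0.531 and 0.286 CPM in WT HSC, so that the groups overlapped. Its log2 fold change of 1.75 ± 0.81 (SE, n = 3 each) had an edgeR adjusted p of 0.0766, which was 0.00485 without WT HSC replicate 1 and 0.039 without KO HSC replicate 2. Tfrc averaged 14.0 ± 2.16 CPM in KO-labelled and 12.5 ± 3.09 CPM in WT HSC (SD, n = 3 each). Its log2 difference of 0.16 had a 95% interval of -0.56 to 0.89 and an edgeR adjusted p of 0.718.

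Background took a larger part of the counts in WT HSC, and it differed between these genes. Reads expected from background made up 2.65% of the Gata1 counts in KO-labelled HSC and 43.3% in WT HSC, and 0.974% of the Epor counts in KO-labelled and 14.7% in WT HSC. These parts take the whole span of each gene, for Gata1 18.8 kb with 2.44 kb of exon. They may be too high if only reads in exons were counted, which is not given. For Gata2, Zfpm1 and Gfi1b the expected part was at most 0.468% in KO-labelled and 2.59% in WT HSC. After subtraction of the expected background and a new scaling, Gata2 (log2 fold change 0.70, edgeR adjusted p = 0.0187) and Gfi1b (0.81, adjusted p = 0.00855) were still called, while Gata1 (2.52, adjusted p = 0.0833), Epor (1.88, adjusted p = 0.0897) and Zfpm1 (0.27, adjusted p = 0.194) were not. Before these steps the values were 1.23 for Gata2, 1.33 for Gfi1b and 0.78 for Zfpm1. With so small a part of their counts subtracted, the fall came mainly with the new scaling. The sizes of these differences in HSC thus depended on scaling, and the loss of Zfpm1 cannot be credited to background in its own counts.

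Among markers of other cells that a sort could hold, 14 megakaryocyte genes summed to 1135 to 1253 CPM in KO-labelled HSC, against 714 to 781 CPM in WT HSC. Gp1bb, a platelet receptor chain, was at 0 in WT HSC. Summed over 9 genes of late red cells, none of them at 0, levels were 74.2 to 81.1 CPM in KO-labelled and 149 to 181 CPM in WT HSC. The part of these cells in the results was not tested, and in libraries of many cells a higher number of cells of a type and more RNA per cell cannot be told apart.

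**Figure D2:**
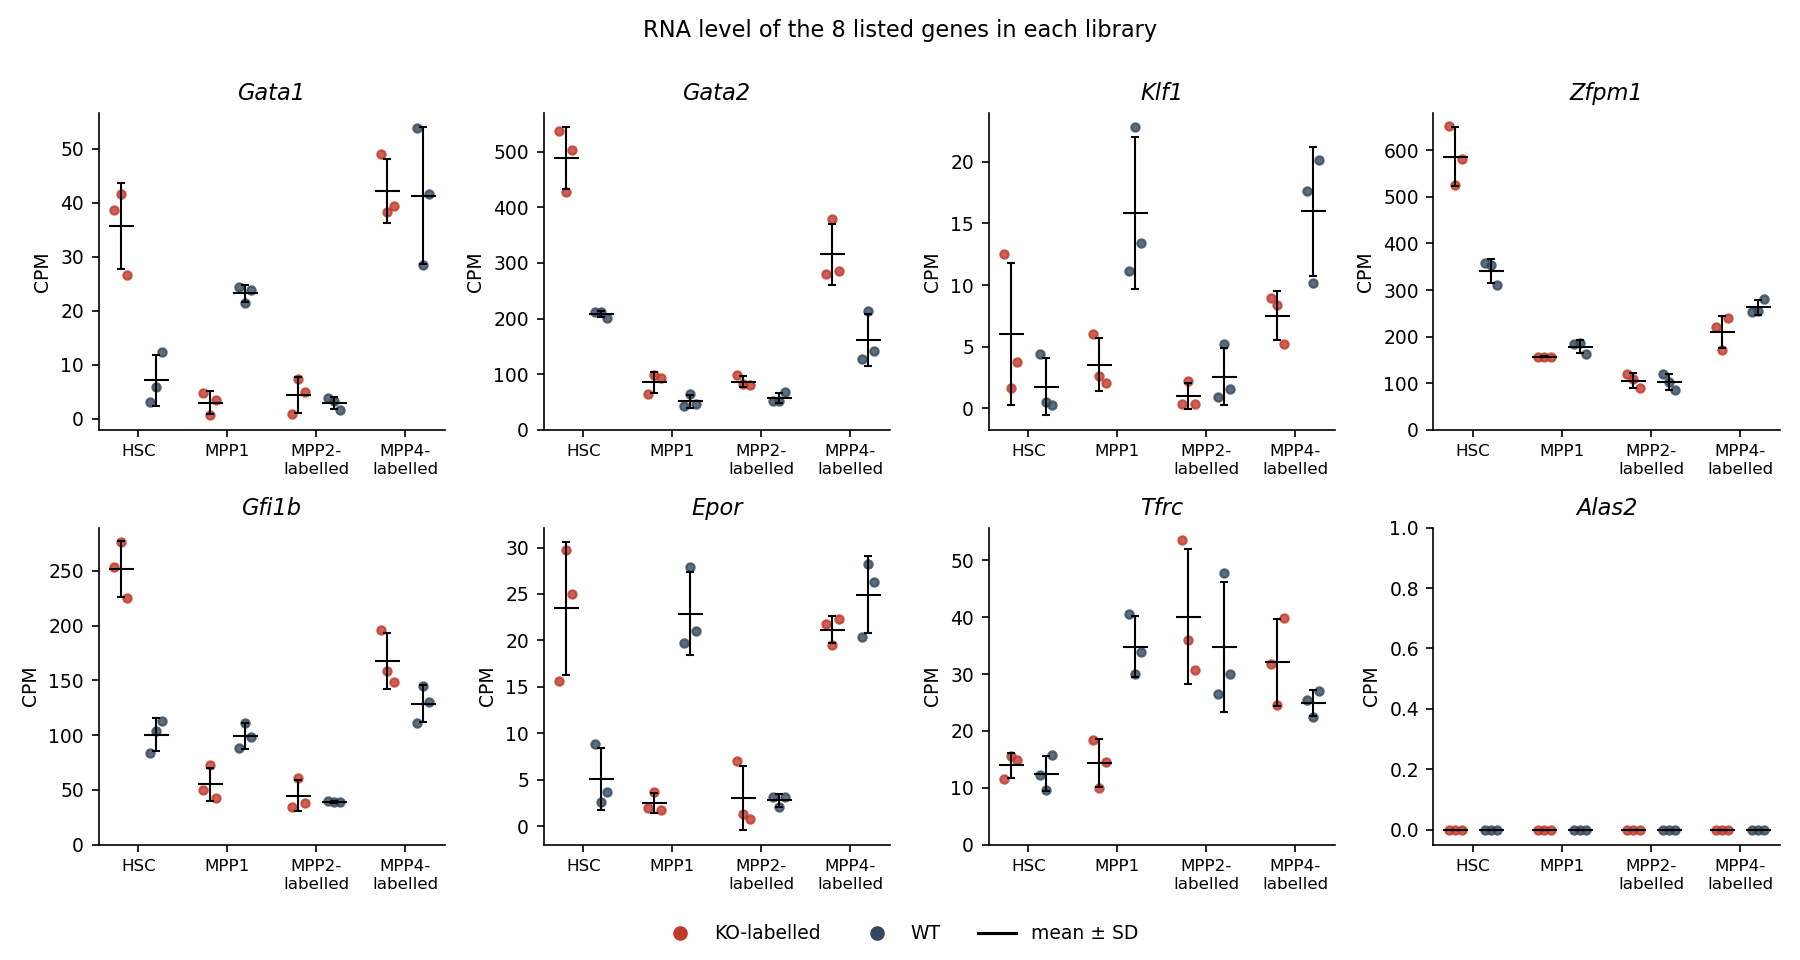
Level in CPM of the 8 genes in each of 24 libraries by population, with KO-labelled libraries left of WT, and the mean ± SD of 3 libraries. Gata1 and Epor were above WT in KO-labelled HSC and below WT in KO-labelled MPP1, and Alas2 had 0 counts in every library.

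In MPP1, the pattern was different. Gata1, Gfi1b, Epor and Tfrc were lower in KO-labelled than in WT libraries, by 1.80-fold for Gfi1b to 8.99-fold for Epor, and Gata2 was 1.67-fold higher. That made 5 of 7 genes called, 4 lower and 1 higher, where over all genes 13.6% were called, 4.90% lower and 8.71% higher. For all 7 genes the libraries of the 2 genotypes did not overlap, as they did not for 35.1% of all genes, and the median log2 fold change was -1.28, beside -0.10 over all genes.

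Gata1 had 4.68, 0.574 and 3.51 CPM in KO-labelled MPP1, against 24.4, 21.4 and 23.8 CPM in WT MPP1. The WT libraries were close to each other and each was above every KO-labelled library. Gata1 was lower by a log2 fold change of -3.00 ± 0.53 (SE, n = 3 each, edgeR adjusted p = 4.76e-05). Gata2 had 64.5, 98.2 and 92.95 CPM in KO-labelled MPP1, against 43.2, 63.9 and 46.2 CPM in WT MPP1. The lowest KO-labelled library was barely above the highest WT library, and the log2 fold change was 0.74 ± 0.17 (SE, n = 3 each, edgeR adjusted p = 0.00205). After background subtraction it was 0.45 (adjusted p = 0.235).

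Gfi1b had 50.1, 72.3 and 43.0 CPM in KO-labelled MPP1, against 88.2, 111 and 98.3 CPM in WT MPP1. All KO-labelled libraries were lower, with a log2 fold change of -0.85 ± 0.18 (SE, n = 3 each, edgeR adjusted p = 0.000861). Its fellow partner gene Zfpm1 averaged 157 ± 0.499 CPM in KO-labelled and 179 ± 13.0 CPM in WT MPP1 (SD, n = 3 each) and was not called (-0.19, edgeR adjusted p = 0.369). With background subtracted Zfpm1 was lower (-0.49, adjusted p = 0.0239).

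Both receptors were lower. Epor had 2.01, 3.73 and 1.75 CPM in KO-labelled MPP1, against 19.7, 27.9 and 21.0 CPM in WT MPP1. Even the highest KO-labelled library was far below the lowest WT library, and the log2 fold change was -3.17 ± 0.56 (SE, n = 3 each, edgeR adjusted p = 5.25e-05). Tfrc had 18.4, 10.05 and 14.6 CPM in KO-labelled MPP1, against 40.6, 29.9 and 33.9 CPM in WT MPP1. The groups were apart, with a log2 fold change of -1.28 ± 0.33 (SE, n = 3 each, edgeR adjusted p = 0.00542), which did not pass without KO MPP1 replicate 2 (adjusted p = 0.0588).

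Klf1 had 6.02, 2.58 and 2.05 CPM in KO-labelled MPP1, against 11.2, 22.8 and 13.4 CPM in WT MPP1. The groups did not overlap, but the log2 difference of -2.15 ± 0.77 (SE, n = 3 each) missed the threshold (edgeR adjusted p = 0.0563). It passed in DESeq2 (adjusted p = 0.0219), in limma-voom (0.0214), in a fit of the 6 libraries alone (0.00343), under median-of-ratios scaling (0.0478) and when genes under 5 CPM were dropped (0.0498). It did not pass with background subtracted (0.309), with no filter (0.059) or in any of the 6 fits that left out a library (0.0509 to 0.223).

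Expected background came to 72.5% of the Gata1 counts in KO-labelled MPP1 and 13.9% in WT MPP1, and to 19.9% of the Epor counts in KO-labelled and 3.45% in WT MPP1. As in HSC, these parts rest on the whole gene span and may be too high. After subtraction of the expected background the log2 fold changes were -4.17 for Gata1 (edgeR adjusted p = 0.012), -3.84 for Epor (0.00165), -1.18 for Gfi1b (0.000359) and -1.72 for Tfrc (0.00419). Late red cell markers summed to 62.6 to 80.9 CPM in KO-labelled MPP1, against 487 to 527 CPM in WT MPP1. Megakaryocyte markers summed to 314.5 to 358.5 CPM in KO-labelled and 265.5 to 289.5 CPM in WT MPP1, with Gp1bb at 0 in both. Mast cell, basophil and eosinophil markers summed to 198 to 226 CPM in KO-labelled and 70.9 to 91.3 CPM in WT MPP1. Of 10 tested, 1 was higher and 1 lower, and most of the sum in KO-labelled MPP1 was Il1rl1, a cytokine receptor chain (183 CPM in KO-labelled and 32.9 CPM in WT MPP1), while Ms4a2, a chain of the IgE receptor, averaged 0.686 CPM in KO-labelled and 2.58 CPM in WT MPP1. Their part in these results was not tested.

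**Figure D3:**
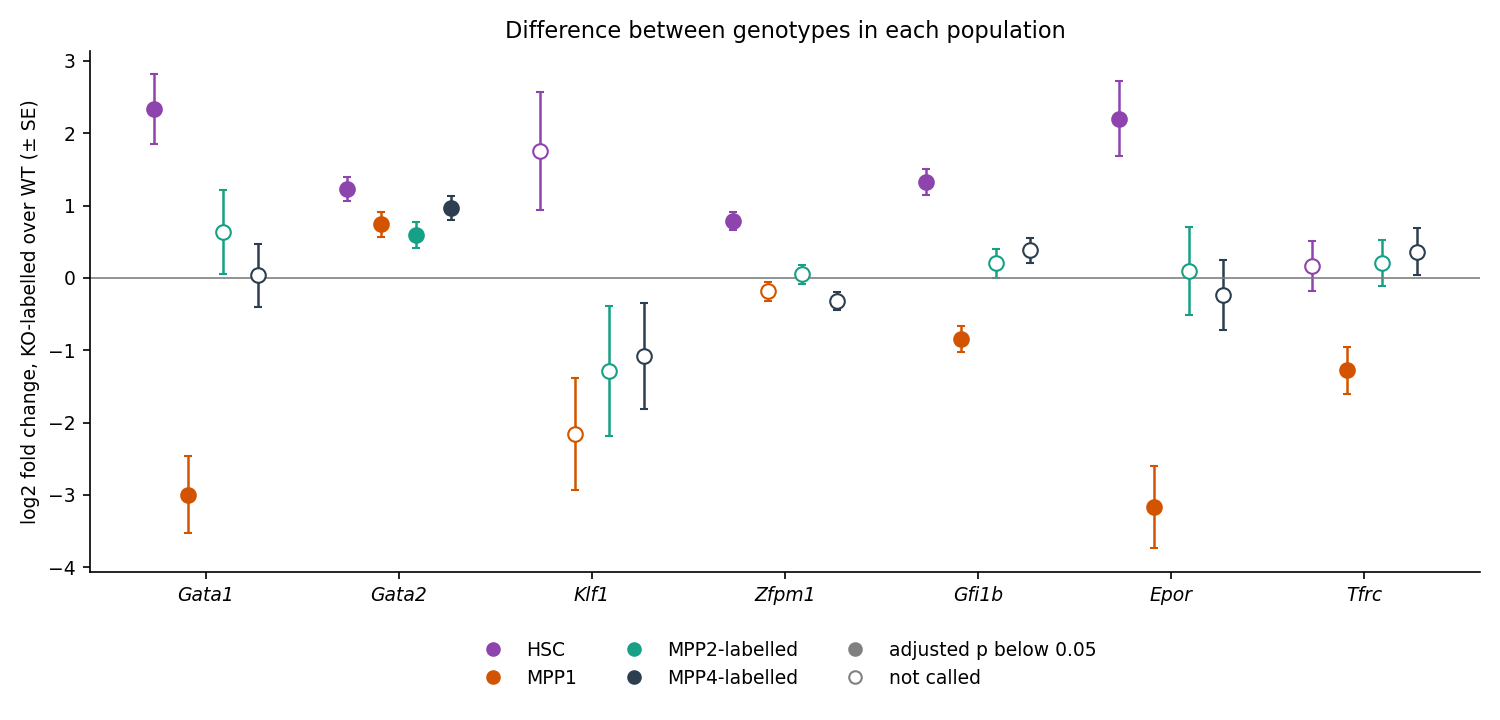
Log2 fold change ± SE of KO-labelled over WT libraries for the 7 tested genes in each population (filled points, adjusted p below 0.05 in edgeR). Gata1 lies at 2.33 in HSC and -3.00 in MPP1, and Gata2 is above 0 in all 4 populations, from 0.59 to 1.23.

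In MPP2-labelled cells, Gata2 was the 1 gene of 7 called, where 7.90% of all genes were called, 3.73% higher. It had 97.8, 82.8 and 80.2 CPM in KO-labelled libraries, against 52.7, 52.4 and 67.6 CPM in WT libraries. The groups did not overlap, and the log2 fold change was 0.59 ± 0.17 (SE, n = 3 each, edgeR adjusted p = 0.0253). It did not pass without WT replicate 1 (0.113), WT replicate 2 (0.119) or KO replicate 1 (0.117), in limma-voom (0.181), in a fit of the 6 libraries alone (0.0553) or after background subtraction (0.246). The other 6 genes had log2 differences between -1.28 ± 0.90 (SE) for Klf1 and 0.64 ± 0.58 for Gata1. Gata1 and Epor had few counts in these cells, with 4.35 ± 3.35 and 3.01 ± 3.45 CPM in KO-labelled libraries, against 2.84 ± 1.11 and 2.775 ± 0.658 CPM in WT libraries (SD, n = 3 each). Gfi1b averaged 44.7 ± 14.1 CPM in KO-labelled and 39.1 ± 0.965 CPM in WT libraries, and Zfpm1 106 ± 15.9 CPM in KO-labelled and 102 ± 16.7 CPM in WT libraries (SD, n = 3 each). Marker sums of mast cells, basophils and eosinophils, which also use Gata2, were 596 to 655 CPM in KO-labelled and 97.9 to 108 CPM in WT libraries. Within this sum Il1rl1 averaged 317 CPM in KO-labelled and 20.6 CPM in WT libraries, and Ms4a2 23.95 CPM in KO-labelled and 4.505 CPM in WT libraries. The part of such cells was not tested.

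In MPP4-labelled cells Gata2 was again the 1 gene of 7 called, where 17.9% of all genes were called, 11.4% higher. It had 281, 379 and 286 CPM in KO-labelled libraries, against 128, 214 and 142 CPM in WT libraries. All KO-labelled libraries were above all WT libraries, and the log2 fold change was 0.96 ± 0.16 (SE, n = 3 each, edgeR adjusted p = 1.95e-05), or 0.61 with background subtracted (adjusted p = 0.0478). Zfpm1 had 220, 172 and 239 CPM in KO-labelled libraries, against 252, 255 and 281.5 CPM in WT libraries. Its KO-labelled libraries were all below the WT ones, but the log2 difference of -0.32 ± 0.12 (SE) missed the threshold (edgeR adjusted p = 0.0644). It passed under median-of-ratios scaling (-0.49, adjusted p = 0.00408), in DESeq2 (0.00121), in limma-voom (0.0412), with genes under 5 CPM dropped (0.0391), without KO MPP4 replicate 3 (0.0331) and with background subtracted (-0.68, 0.00143).

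The remaining genes were not called in MPP4-labelled cells. Gata1 averaged 42.2 ± 5.93 CPM in KO-labelled and 41.3 ± 12.7 CPM in WT libraries (SD, n = 3 each), a log2 difference of 0.03 ± 0.44 (SE). Gfi1b differed by 0.38 ± 0.18 (edgeR adjusted p = 0.132), Epor by -0.24 ± 0.48, Tfrc by 0.36 ± 0.32 and Klf1 by -1.08 ± 0.74 on the log2 scale. Marker sums of late red cells were 198.5 to 262 CPM in KO-labelled and 490 to 543 CPM in WT libraries, and those of granulocytes and monocytes 531 to 574.5 CPM in KO-labelled and 208 to 237 CPM in WT libraries. Those of mast cells, basophils and eosinophils were 345 to 426.5 CPM in KO-labelled and 158.5 to 209.8 CPM in WT libraries. Members of this last list went both ways. Il1rl1 averaged 40.5 CPM in KO-labelled and 107.6 CPM in WT libraries, and Ms4a2 88.3 CPM in KO-labelled and 9.64 CPM in WT libraries. The part of all these cells was not tested.

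Averaged over the 4 populations, 2 of 7 genes were called, both higher, where 53.2% of all genes were called, 22.9% higher. Gata2 was higher in KO-labelled libraries by 0.88 ± 0.08 on the log2 scale (SE, edgeR adjusted p = 1.08e-11), and in each population its KO-labelled libraries lay above its WT libraries. Gfi1b was higher by 0.27 ± 0.09 (adjusted p = 0.0142), which did not pass under median-of-ratios scaling (0.15, adjusted p = 0.155), in DESeq2 (0.167), without KO MPP2 replicate 2 (0.0596) or KO MPP1 replicate 2 (0.0553), without the MPP2- and MPP4-labelled libraries (0.22, 0.0966) and after background subtraction (-0.07, 0.665). With background subtracted, Gata2 was higher by 0.55 (adjusted p = 0.000174) and Zfpm1 lower (-0.25, adjusted p = 0.0083).

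The difference between genotypes itself differed between populations for 6 of 7 genes in the interaction test, which called 17.7% of all genes. The edgeR adjusted p-values were 2.17e-07 for Gfi1b, 3.2e-06 for Gata1, 1.34e-05 for Epor, 1.6e-05 for Zfpm1, 0.0226 for Tfrc and 0.0499 for Klf1. For Gata2 it was 0.169, or 0.0457 without WT MPP4 replicate 2. The value of Klf1 lay just below the threshold. It missed the threshold in 14 of 24 fits that left out a library (adjusted p 0.0504 to 0.327, highest without KO HSC replicate 1). That of Tfrc missed it without WT MPP1 replicate 1 (0.0907) or 3 (0.0506), or without KO MPP1 replicate 2 (0.111) or 3 (0.0577). With background subtracted, Gfi1b (0.000329), Epor (0.00466), Zfpm1 (0.00504) and Gata1 (0.0127) were called, and Tfrc (0.0542) and Klf1 (0.43) were not.

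Pairs of populations were then compared. The log2 fold change in MPP1 minus that in HSC was called for 6 of 7 genes, all negative, where 10.1% of all genes were called, 3.92% as negative. It was -5.37 ± 0.77 for Epor (SE, edgeR adjusted p = 2.15e-06), -5.33 ± 0.71 for Gata1 (5.48e-07), -3.91 ± 1.12 for Klf1 (0.0179), -2.17 ± 0.26 for Gfi1b (2.9e-08), -1.44 ± 0.48 for Tfrc (0.0434) and -0.97 ± 0.18 for Zfpm1 (0.000108). For Gata2 it was -0.49 ± 0.24 (0.199). With background subtracted Klf1 (0.271) and Tfrc (0.0829) were not called, which left 4 of 7. MPP4-labelled cells differed from HSC for 4 of 7 genes, with 8.74% of all genes called, 2.85% negative: Epor by -2.44 (adjusted p = 0.0224), Gata1 by -2.30 (0.0175), Zfpm1 by -1.10 (1.44e-05) and Gfi1b by -0.95 (0.0104). Of these Zfpm1 was called with background subtracted (0.00327), and Gata1 (0.262), Gfi1b (0.146) and Epor (0.193) were not. MPP2-labelled cells differed from HSC for Gfi1b (-1.13, adjusted p = 0.00174) and Zfpm1 (-0.73, 0.00271), 2 of 7 genes, with 17.4% of all genes called, 7.92% negative. Neither passed with background subtracted (Gfi1b -0.74, adjusted p = 0.19, and Zfpm1 -0.35, 0.391). These contrasts share the HSC groups. Set against MPP1, the genotype difference of Gata1, Gfi1b and Epor was higher in MPP2-labelled cells (3.63, 1.04 and 3.26 on the log2 scale, adjusted p of 0.0025, 0.0144 and 0.0135; 3 of 7 genes, with 4.07% of all genes called, 1.02% positive). It was also higher in MPP4-labelled cells (3.03, 1.23 and 2.93, adjusted p of 0.00905, 0.00339 and 0.0248; 3 of 7, with 1.51% of all genes called, 0.965% positive). With background subtracted Epor was not called in MPP2-labelled cells against MPP1 (0.0511), nor were Gata1 (0.169) and Epor (0.113) in MPP4-labelled cells against MPP1. Between MPP2- and MPP4-labelled cells edgeR called 0 of the 7 genes, where 4.99% of all genes were called, and 1 of them, Zfpm1, had an unadjusted p under 0.05 (0.0452).

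**Figure D4:**
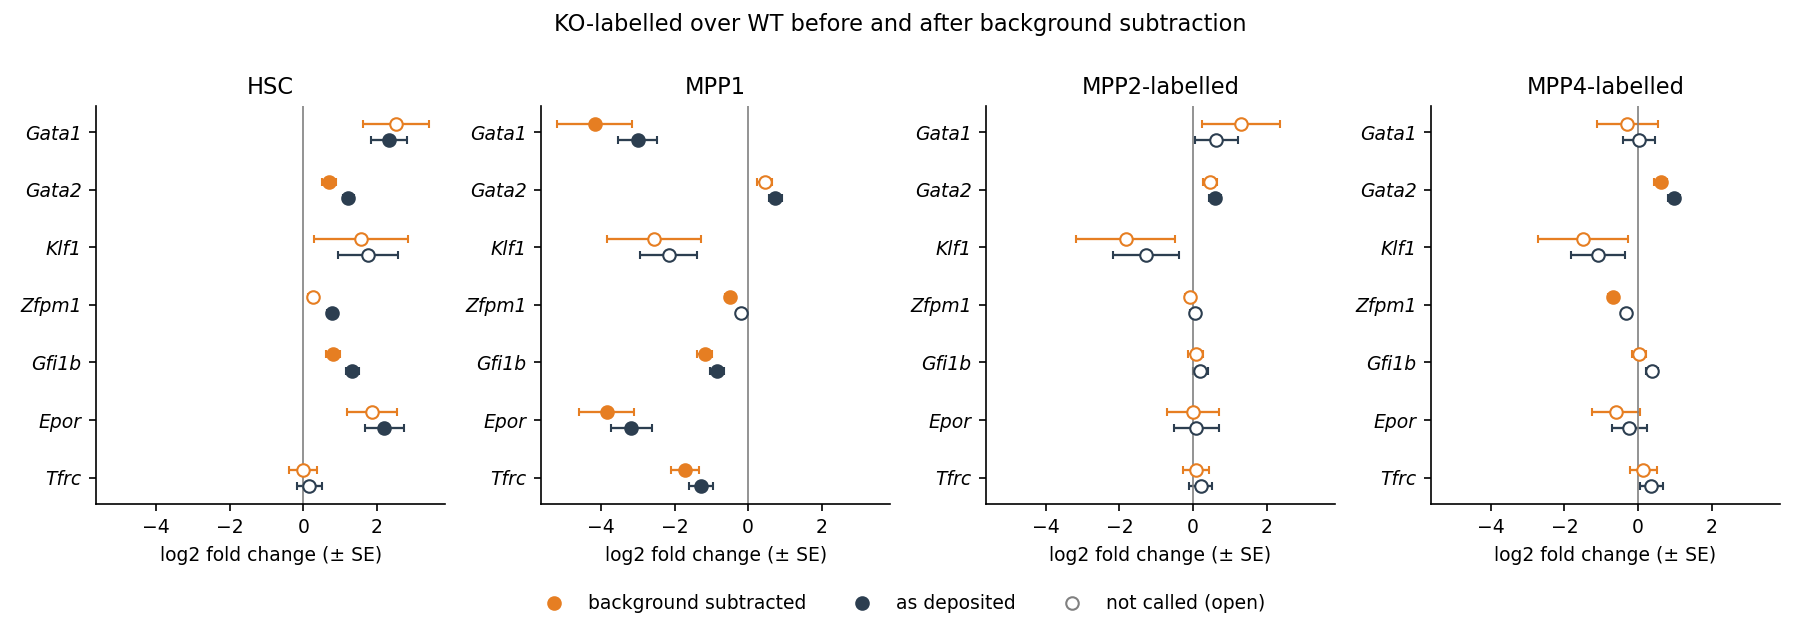
Log2 fold change of KO-labelled over WT libraries for the 7 tested genes, for the counts as deposited and, in orange, with the expected background subtracted. Gata1 in MPP1 lies at -3.00 and -4.17, and Gata2 in HSC at 1.23 and 0.70.

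The order of levels over the populations differed between the genotypes for Gata1. In KO-labelled cells it was highest in MPP4-labelled cells (42.2 CPM) and HSC (35.6 CPM), which were not told apart (edgeR adjusted p = 0.713), and both were above MPP2-labelled cells (4.35 CPM) and MPP1 (2.92 CPM), also not told apart (0.538). In WT cells MPP4-labelled cells (41.3 CPM) and MPP1 (23.2 CPM) were not told apart (0.392), WT MPP1 was above WT HSC (7.06 CPM, adjusted p = 0.0277), and WT HSC and MPP2-labelled cells (2.84 CPM) were not told apart (0.0951). The step between WT MPP1 and WT HSC was lost in 5 of the 6 fits that left out a library of either group, that without WT HSC replicate 3 being the exception (adjusted p from 0.0593 to 0.218), and with background subtracted (0.199).

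Gata2 was higher in HSC and MPP4-labelled cells than in the other populations, in both genotypes. In KO-labelled cells HSC (489 CPM) were above MPP4-labelled cells (315 CPM, edgeR adjusted p = 0.00203, but 0.345 with background subtracted) and these above MPP2-labelled cells (86.9 CPM, 1.77e-11), with MPP1 (85.2 CPM) not told apart from the last (0.949). In WT cells HSC (208 CPM) and MPP4-labelled cells (161 CPM) were not told apart (0.173), MPP4-labelled were above MPP2-labelled cells (57.6 CPM, 2.87e-09), and the last were not told apart from MPP1 (51.1 CPM, 0.593). Between WT MPP1 and WT HSC the log2 fold change was -2.03 (1.04e-11).

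Zfpm1 had the same order in both genotypes, HSC above MPP4-labelled cells, MPP1 and MPP2-labelled cells. The means in CPM were 586, 210, 157 and 106 in KO-labelled cells, and 341, 263, 179 and 102 in WT cells. All neighbours differed in edgeR (adjusted p from 8.56e-13 to 0.0207 in KO-labelled and from 5.58e-06 to 0.0401 in WT cells). Of these steps, that between WT HSC and WT MPP4-labelled cells was lost without WT HSC replicate 1 or 2 or without WT MPP4 replicate 1 or 2 (0.126 to 0.167), under median-of-ratios scaling (0.235) and with background subtracted (0.328). The step between KO MPP4-labelled cells and KO MPP1 was lost in 5 of 6 fits that left out a library (0.0601 to 0.166), all but that without KO MPP4 replicate 2.

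Gfi1b had, in KO-labelled cells, 251.5 CPM in HSC, 168 CPM in MPP4-labelled cells (edgeR adjusted p = 0.00909 for that step, 0.458 with background subtracted), 55.15 CPM in MPP1 (6.27e-09) and 44.7 CPM in MPP2-labelled cells (0.345). In WT cells, MPP4-labelled cells (129 CPM), HSC (100.2 CPM) and MPP1 (99.2 CPM) were not told apart from their neighbours (0.242 and 0.998), and all lay above MPP2-labelled cells (39.1 CPM, 5.41e-07 against MPP1).

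Epor grouped the populations as Gata1 did. In KO-labelled cells HSC (23.45 CPM) and MPP4-labelled cells (21.2 CPM) were not told apart (edgeR adjusted p = 0.853) and lay above MPP2-labelled cells (3.01 CPM, 0.00028) and MPP1 (2.50 CPM). In WT cells MPP4-labelled cells (24.9 CPM) and MPP1 (22.9 CPM) were not told apart (0.958) and lay above HSC (5.08 CPM, 0.00715) and MPP2-labelled cells (2.775 CPM). The step between WT MPP1 and WT HSC was lost without WT HSC replicate 2 (0.0878) or 3 (0.0619) or WT MPP1 replicate 2 (0.0517).

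Group means of Klf1 ran from 1.01 to 15.97 CPM. In KO-labelled cells no neighbours in its order passed the test. In WT cells MPP4-labelled cells (15.97 CPM) and MPP1 (15.8 CPM) were above MPP2-labelled cells (2.57 CPM, edgeR adjusted p = 0.0184) and HSC (1.75 CPM), a step lost in 3 of 6 fits that left out a library (WT MPP2 replicate 1 or 3 or WT MPP1 replicate 2, 0.0978 to 0.115) and with background subtracted (0.222). Tfrc ran differently from the others. In KO-labelled cells it was highest in MPP2-labelled (40.1 CPM) and MPP4-labelled cells (32.1 CPM), above MPP1 (14.35 CPM, 0.0154, lost without KO MPP1 replicate 2 or 3 or KO MPP4 replicate 3) and HSC (14.0 CPM). In WT cells MPP1 (34.8 CPM), MPP2-labelled (34.8 CPM) and MPP4-labelled cells (24.95 CPM) were not told apart from their neighbours, and the step down to HSC (12.5 CPM, 0.0462) was lost in 5 of 6 such fits, all but that without WT HSC replicate 3 (0.0641 to 0.23). WT HSC also lay below WT MPP1 (edgeR adjusted p = 0.0035) and WT MPP2-labelled cells (0.000826) for Tfrc. Neither of these calls was lost when a library was left out.

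Counted over the set, in WT cells 6 of 7 genes differed between MPP1 and HSC, where 3.80% of all genes did (1.97% higher and 1.83% lower in MPP1), with Gata1, Klf1, Epor and Tfrc higher and Gata2 and Zfpm1 lower in MPP1. That number was 3 to 5 when a library was left out. MPP2-labelled against HSC gave 4 of 7 genes in WT cells (19.1% of all genes, 11.7% higher and 7.37% lower) and 7 of 7 in KO-labelled cells (17.9%, 10.7% higher and 7.22% lower), of which 6 were lower in MPP2-labelled cells and Tfrc higher. The latter count was 6 to 7 when a library was left out. Klf1 (edgeR adjusted p = 0.043) was lost in 3 of 6 such fits (0.145 to 0.383), in limma-voom (0.171) and with background subtracted (0.203). MPP4-labelled against HSC gave 5 of 7 genes in WT cells (10.3%, 2.91% higher and 7.43% lower), which became 2 to 4 when a library was left out, and 4 of 7 in KO-labelled cells (29.8%, 17.6% higher and 12.2% lower). KO-labelled MPP1 against KO-labelled HSC gave 5 of 7 genes (20.0%, 12.6% higher and 7.49% lower), all lower in MPP1: Gata1 (-3.61), Epor (-3.21), Gata2 (-2.52), Gfi1b (-2.19) and Zfpm1 (-1.90 on the log2 scale). In WT cells the log2 fold changes of the same contrast were 1.72 for Gata1 and 2.17 for Epor, both higher in MPP1. The other pairs used above gave 5 of 7 (WT MPP2-labelled against MPP1, 15.6% of all genes), 2 of 7 (WT MPP4-labelled against MPP1, 6.37%), 6 of 7 (WT MPP2- against MPP4-labelled, 27.3%), 2 of 7 (KO MPP2-labelled against MPP1, 12.7%), 6 of 7 (KO MPP4-labelled against MPP1, 9.85%) and 6 of 7 (KO MPP2- against MPP4-labelled, 15.5%).

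Alas2 had 0 counts in all 24 libraries. A count of 0 allows up to 3 counts, or 0.788 to 1.18 CPM in a library. Had reads over its whole span been counted, background alone would have given 3.36 to 17.3 counts per library, 235 in all. Of the 9251 protein-coding genes with at least that much expected background, 247 were also at 0. Rag1 and Rag2, recombinase genes of early lymphocytes, were likewise listed at 0 throughout. Why reads of these genes are absent from the table was not tested, so the value for Alas2 cannot be read as a level of its RNA.

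Per kb of exon, which allows levels to be compared between genes, Zfpm1 was the most abundant of the genes at 167 CPM per kb in KO-labelled and 97.35 CPM per kb in WT HSC. Gfi1b followed with 137 CPM per kb in KO-labelled and 54.7 in WT HSC, and Gata2 with 90.5 in KO-labelled and 38.6 in WT HSC. Gata1 (14.6 in KO-labelled and 2.89 in WT HSC), Epor (11.8 in KO-labelled and 2.55 in WT HSC), Klf1 (3.93 in KO-labelled and 1.14 in WT HSC) and Tfrc (2.26 in KO-labelled and 2.02 in WT HSC) had lower levels in CPM per kb. Reads of Zfpm1 may in part belong to Gm20388, which overlaps it on the same strand in the reference annotation and has no row in the count table.

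Across the 24 libraries, Pearson correlations of log2 CPM described which genes varied together. These libraries share genotype, population and background, so the values are a description. They were highest between Zfpm1 and Gfi1b (r = 0.848), Gata1 and Gfi1b (0.826), and Gata2 and Gfi1b (0.795). Gata2 and Zfpm1 reached 0.792, Gfi1b and Epor 0.787, and Gata1 and Epor 0.773. Klf1 was closest to Epor (0.68) and had an r of 0.031 with Gata2. Tfrc ran opposite to Zfpm1 (-0.613) and Gata2 (-0.485). Among 12728 genes averaging 5 CPM or more, the 3 most like Gata1 were Epdr1 (0.885), Mfsd2b (0.88), a sphingosine-1-phosphate transporter of red cells, and Ces2g (0.855). Those most like Epor were Ces2g (0.922), Mfsd2b (0.838) and Septin8 (0.838). Zfpm1 was most like Vwf (0.954), the von Willebrand factor of platelets and of platelet-biased stem cells, Plxnc1 (0.941) and Nupr1 (0.937). Gata2 was most like Zfp385a (0.95), Slc18a2 (0.931), the vesicular monoamine transporter, and Nol4l (0.911). Gfi1b was most like Dach1 (0.956), Adgrl2 (0.9) and Tgfbr3 (0.89), and Klf1 like Paqr9 (0.846), Abcb4 (0.788) and the water channel Aqp1 (0.764). The genes most like Tfrc were Mpo (0.854) and Elane (0.824), enzymes of granule-forming myeloid progenitors, and Ms4a3 (0.81).

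Genes that work with the set were described from 6 lists. Of all genes, 43.1% were called in HSC (18.3% higher), 13.6% in MPP1 (8.71% higher and 4.90% lower), 7.90% in MPP2-labelled (3.73% higher) and 17.9% in MPP4-labelled cells (11.4% higher), and each list's counts are to be read against these shares. Of 20 cofactors and partners of Gata1 and Gfi1b, 19 were tested, and in HSC 17 were higher and 1 was lower in KO-labelled libraries, where 18.3% of all genes were higher, with a median log2 fold change of 0.71 beside -0.31 over all genes. Under median-of-ratios scaling 15 were higher and 1 lower, and with background subtracted 4 higher and 1 lower. The MPP1 libraries had 6 higher and 2 lower, the MPP2-labelled 3 higher and 5 lower, and the MPP4-labelled 7 higher and 1 lower (4 and 2 under median-of-ratios scaling). Background subtraction gave 1 higher and 3 lower in MPP1, 1 and 5 in MPP2-labelled and 2 and 2 in MPP4-labelled cells. Runx1, a core factor of blood stem cells, was higher in KO-labelled HSC (log2 fold change 0.50, edgeR adjusted p = 1.07e-10) and lower in KO-labelled MPP1 (-0.67, 2.08e-13) and MPP2-labelled cells (-0.58, 1.38e-11). Bcl11a, the repressor of fetal globin genes, was higher in HSC (1.14) and MPP1 (0.36) and lower in MPP2-labelled cells (-0.62). Cbfa2t3, a corepressor in Gata1 complexes, was higher in HSC (0.54) and MPP4-labelled cells (0.29) and lower in MPP2-labelled cells (-0.58).

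Of 16 genes of heme synthesis and its transporters, 15 were tested. Called were 3 in HSC (1 higher and 2 lower; 43.1% of all genes were called there), 3 in MPP1 (all lower; 13.6% of all genes) and 2 in MPP4-labelled cells (both lower; 17.9% of all genes). In MPP2-labelled cells edgeR called 0 of the 15 (7.90% of all genes), with 1 at an unadjusted p under 0.05 and a smallest adjusted p of 0.158. With background subtracted 1 of the 15 was lower in HSC, 3 in MPP1 and 1 in MPP4-labelled cells, and none was higher. Alad, the enzyme after the Alas step, was lower in KO-labelled MPP1 (log2 fold change -1.07, edgeR adjusted p = 0.0171), and Abcb10, a mitochondrial transporter, was lower in HSC (-1.16, 0.00751), MPP1 (-1.42, 0.00375) and MPP4-labelled cells (-1.28, 0.00754). Of 15 genes of iron uptake and storage, 8 were higher in KO-labelled HSC (18.3% of all genes were) and 7 were higher and 1 lower in MPP4-labelled cells (11.4% of all genes were higher). Of these 15, 1 was lower in MPP1 and 1 higher in MPP2-labelled cells, where 4.90% and 3.73% of all genes were. Under median-of-ratios scaling the counts were 6 higher and 1 lower in HSC and 4 higher and 2 lower in MPP4-labelled cells, and with background subtracted 2 were higher in each. Steap3, which reduces the iron that the transferrin receptor brings in, was higher in KO-labelled HSC (1.08, 4.23e-05) and lower in KO-labelled MPP1 (-1.42, 1.02e-06). Pcbp1, an iron chaperone, was called in HSC (1.57, 4.06e-07), and Slc11a2, an iron exporter of the endosome, in MPP2-labelled cells (0.86, 0.0191).

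Of 15 genes of erythropoietin receptor signalling, 13 were tested, and none was lower in KO-labelled libraries. Higher were 5 genes in HSC, 3 in MPP1, 4 in MPP4-labelled and 1 in MPP2-labelled cells, where 18.3%, 8.71%, 11.4% and 3.73% of all genes were higher. Counted in either direction, 43.1% of all genes were called in HSC and 7.90% in MPP2-labelled cells, so that 5 and 1 of 13 lie near the shares of all genes. With background subtracted 2 were higher and 1 lower in MPP1, 1 higher and 1 lower in MPP2-labelled cells, 2 higher and 1 lower in MPP4-labelled cells, and 0 called in HSC. Lyn, a kinase bound to the receptor, was higher in HSC (log2 fold change 0.52), as was Stat5b, a transcription factor that the receptor activates (0.39, edgeR adjusted p = 0.0195). Sh2b3 (Lnk), an adaptor that restrains the pathway, was higher in MPP1 (1.00, 0.00199).

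Red cell products were lower in KO-labelled libraries for most of the tested genes in HSC, MPP1 and MPP4-labelled cells, and for 8 of 21 in MPP2-labelled cells. Of the 23 genes listed, 22 were in the table and 21 were tested. In KO-labelled libraries 13 were lower and 2 higher in HSC, 16 lower in MPP1, 8 lower and 1 higher in MPP2-labelled cells, and 13 lower and 1 higher in MPP4-labelled cells, where 43.1%, 13.6%, 7.90% and 17.9% of all genes were called in either direction. The median log2 fold changes were -1.48, -2.57, -0.84 and -1.24, beside -0.31, -0.10, -0.07 and -0.08 over all genes, and with background subtracted 11, 13, 7 and 13 were lower. Hbb-bs, an adult beta globin, was lower in HSC (-1.18), MPP1 (-2.98, edgeR adjusted p = 2.09e-16), MPP2-labelled (-0.75) and MPP4-labelled cells (-1.37). Slc4a1, the anion exchanger of the red cell membrane, was lower in HSC (-0.49, 0.0498), MPP1 (-2.80, 3.21e-13) and MPP4-labelled cells (-0.85, 0.00128). Aqp1 was lower in MPP1 (-2.74), MPP2-labelled (-3.89) and MPP4-labelled cells (-1.53). Globin RNA from maturing red cells would be counted in this list, which holds the 9 late red cell markers summed above. Its part was not tested.

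Of 9 further members of the Gata, Fog, Gfi and Klf families, 4 were called in HSC, all lower in KO-labelled libraries. The MPP1 libraries had 2 called (1 higher and 1 lower), the MPP2-labelled 3 (1 higher and 2 lower) and the MPP4-labelled 2 (both lower). Over all genes 43.1%, 13.6%, 7.90% and 17.9% were called in these 4 populations, so that in HSC the share of these 9 was about that of all genes. Gata3, the Gata factor of T cells, was higher in KO-labelled MPP1 (log2 fold change 1.96, edgeR adjusted p = 6.05e-07) and MPP2-labelled cells (2.31, 2.37e-08). Zfpm2, the second Fog gene, was lower in HSC (-2.08) and MPP4-labelled cells (-1.06). The values of Zfpm2 are those before background subtraction, and the part of background in its counts is not given here. With background subtracted 1 gene of these 9 was lower in HSC and 1 in MPP4-labelled cells.

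**Figure D5:**
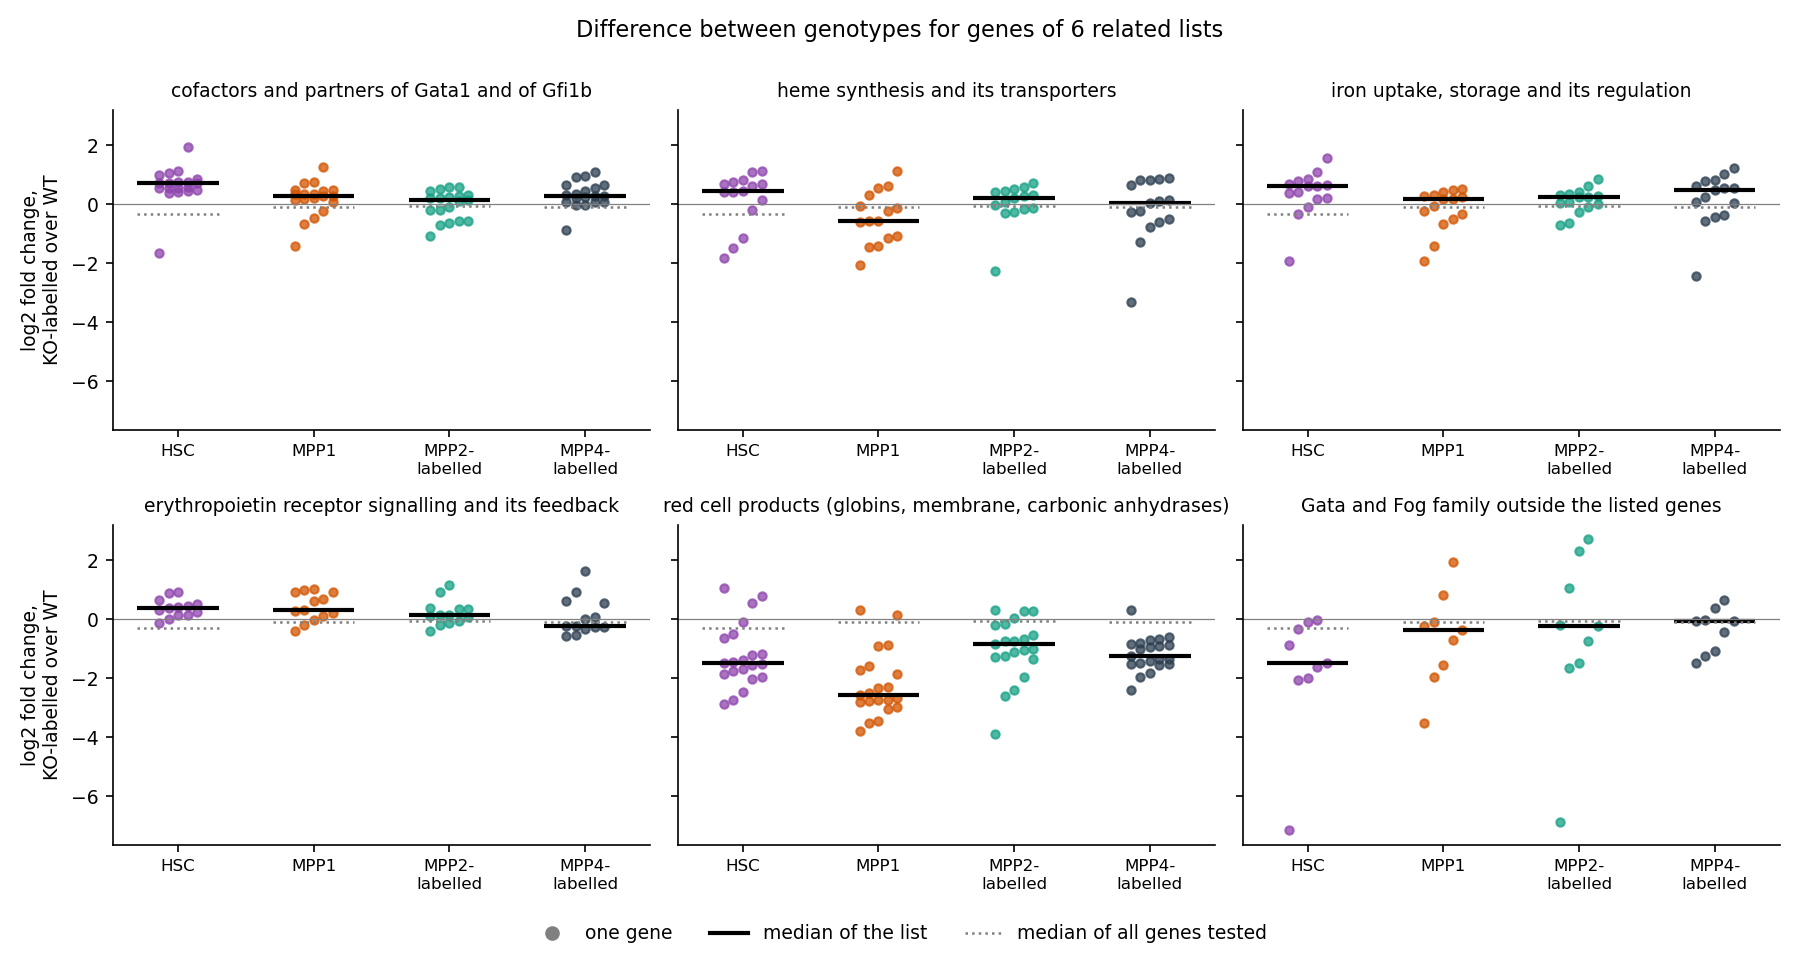
Log2 fold change of KO-labelled over WT libraries for each tested gene of the 6 lists in each population, with the list's median (black) and the median of all genes (dotted). The red cell products lie below the median of all genes in every population, at -1.48, -2.57, -0.84 and -1.24.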

How the data were processed

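The authors deposited 1 table of raw read counts, with 56748 genes in rows and the 24 libraries in columns. Per the submitters' processing notes, SAMtools 1.12 and DESeq2 were applied and the genome was mm39. How reads were aligned, counted and assigned by strand was not given in the sources used here. Per the labels' protocols, total RNA was made into libraries with the NEBNext Ultra II RNA kit. Columns were matched to samples by the description field, and groups came from the titles.

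The 21964 genes that passed filterByExpr were fitted in 1 quasi-likelihood model with 8 group means (edgeR 4.0.16 under R 4.3.3, TMM scaling, common biological coefficient of variation 0.393 on 16 residual degrees of freedom). P-values were adjusted by Benjamini-Hochberg over all genes tested, and a gene was called below 0.05. SE is the size of the log2 fold change divided by the root of its F value. Levels are means ± SD of 3 libraries. Replicate libraries were not duplicates (chi-square per gene within a group 4.33 to 10.4, where sampling alone gives about 1). Correlations used log2 CPM with a prior count of 2.

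Expected background was the count per kb of gene span over 1491 receptor genes in a library, times each gene's span in a GRCm38 annotation that held 52125 of the identifiers (91.9%). Introns are part of that span, so the estimate may be too high if only reads in exons were counted. The expected background was subtracted before a second fit with new scaling, which also moved genes with little background. Other alternatives were median-of-ratios size factors, DESeq2 1.42.0, limma-voom (limma 3.58.1), no filter, a filter at 5 CPM, a fit of the compared libraries only, a block for the replicate number, and each library left out. The genes named were the 8 genes, up to 3 per list with the smallest interaction p, and the 3 genes most like each by Pearson r, predicted genes passed over; some genes the rule takes are not reported here. The 8 genes and all lists were chosen with earlier results of these data known. The interval of a log2 difference rests on the spread between libraries, and floors from a count of 0 cover counting error only. Tested on data simulated for the HSC contrast (21208 genes), 7 of 100 genes changed 1.5-fold and 37 of 100 changed 3-fold were recovered, with 4 false calls (8.33%).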

Additional observations from a re-analysis of the deposited data

Results flagged for a closer look

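For 6 of the 7 tested genes the difference between KO-labelled and WT libraries was not the same in the 4 populations, by the interaction test of edgeR (adjusted p in each case). The values were 2.17e-07 for Gfi1b, 3.2e-06 for Gata1, 1.34e-05 for Epor, 1.6e-05 for Zfpm1, 0.0226 for Tfrc and 0.0499 for Klf1. Gata1, Gfi1b and Epor were higher in KO-labelled HSC and lower in KO-labelled MPP1, each past the threshold in both. The interaction of Klf1 missed the threshold in 14 of 24 fits that left out a library and that of Tfrc in 4 of 24. Groups of 3 libraries were too small to be tested for a single library far from the others.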

How the results depend on the processing

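Of the single-gene results recalculated under the alternatives, 1368 kept direction and side of the threshold, 99 lost the threshold, 17 gained it and 18 changed sign. In HSC the number of genes called was 5, and 2 with background subtracted. In MPP2-labelled cells it was 1, and 0 in limma-voom, with only the libraries compared and with background subtracted (0 to 1 with a library left out). In MPP4-labelled cells it was 1, and 2 with median-of-ratios size factors, the filter at 5 CPM, DESeq2, limma-voom and background subtracted (1 to 2 with a library left out). For the average it was 2, and 1 with median-of-ratios size factors and in DESeq2 (1 to 3 with a library left out). WT MPP1 against HSC gave 6, and 3 to 5 with a library left out, and WT MPP4-labelled against HSC gave 5, with 3 after background subtraction and 2 to 4 with a library left out. KO MPP4-labelled against KO HSC gave 4, and 2 after background subtraction.

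Signs changed only for uncalled values and for the average of Gfi1b (-0.072 with background subtracted): Tfrc in HSC (-7e-04), Epor (-0.0036) and Zfpm1 (-0.0832) in MPP2-labelled cells and Gata1 in MPP4-labelled cells (-0.29) with background subtracted, Epor in MPP2-labelled cells in limma-voom (-0.44), and Gata1 in MPP4-labelled cells with median-of-ratios size factors (-0.14), in DESeq2 (-0.14) and with only the libraries compared (-0.0165). With a library left out, MPP2-labelled log2 fold changes ran from -0.001 to 1.11 for Gata1, -0.0659 to 0.17 for Zfpm1, -0.10 to 0.34 for Gfi1b, -1.39 to 0.54 for Epor and -0.0611 to 0.50 for Tfrc, and MPP4-labelled ones from -0.18 to 0.27 for Gata1. The causes were not tested.

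Same-numbered libraries did not vary together (12 pairs of genotypes, r from -0.019 to 0.023; 4 of 12 were closest to their own number). With the replicate number as a block, 5, 6, 1 and 1 genes were called in HSC, MPP1, MPP2-labelled and MPP4-labelled cells, the sixth in MPP1 being Klf1 (-2.29, adjusted p = 0.0423), and Tfrc between WT MPP4-labelled cells and HSC (0.0504) and Klf1 between KO MPP2-labelled cells and HSC (0.0603) were lost. The block changed no other call.

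Over all genes, background subtraction lowered the calls between genotypes from 9462 to 1640 in HSC, 2988 to 1127 in MPP1, 1735 to 864 in MPP2-labelled and 3926 to 1375 in MPP4-labelled cells, 11689 to 4395 for the average and 3881 to 1135 for the interaction. Median-of-ratios size factors moved the median of all genes by -0.15 in HSC, -0.17 in MPP4-labelled cells and -0.11 for the average, and changed the split of 1912 higher and 1076 lower in MPP1 to 1421 and 1300, and that of 2506 and 1420 in MPP4-labelled cells to 1521 and 1927. Without the MPP2- and MPP4-labelled libraries, chosen after seeing the data, 5 genes were called in HSC and 6 in MPP1, and Tfrc lost its interaction (0.051) and Gfi1b its average (0.0966). Low counts of Klf1, Gata1 and Epor limited their precision.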
